A study of Mus musculus with 8 samples.

Results

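Carbonic anhydrases are zinc enzymes that interconvert carbon dioxide and bicarbonate. The 8 genes Car2, Car7, Car13, Car8, Car4, Car9, Car12 and Car14 were taken by symbol from the 37620 genes of each table. No measured value entered the rule for taking them, though earlier results of these data were known. Car2, Car7 and Car13 encode cytosolic enzymes, Car8 a cytosolic family member without catalytic activity, Car4 an enzyme held on the outer face of the membrane by a glycosylphosphatidylinositol (GPI) anchor, and Car9, Car12 and Car14 enzymes that span the membrane with an outward catalytic domain. In the intestinal epithelium the cytosolic enzymes supply protons and bicarbonate to the exchangers that absorb sodium chloride and secrete bicarbonate, while the membrane enzymes act on bicarbonate and carbon dioxide at the cell surface. Car9 is also known as a target of hypoxia-inducible factors, the transcription factors that respond to low oxygen.

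RNA was sequenced from epithelial cells of mouse small intestine, sorted by flow cytometry in 2 groups of 4 libraries that the submitters call biological replicates. CD24Mid cells, which the submitters also call CD24low, had intermediate CD24, a surface glycoprotein (libraries 1, 3, 5 and 7), and CD24Neg cells were negative for it (libraries 2, 4, 6 and 8). From both groups, cells bearing the leukocyte antigen CD45 or binding the Ulex lectin had been removed. No treatment or genetic change is named for either group, and the sources used here do not give strain, age or any pooling of animals. By the series title, the comparison addresses differentiation in the intestine.

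The libraries held between 11340782 and 18928233 reads unique to 1 gene. All 6 crypt base stem cell markers were higher in CD24Mid and all 8 enterocyte markers were higher in CD24Neg (edgeR adjusted p under 0.05). T and NK lymphocyte markers summed to between 29.2 and 503 CPM (gene-unique reads scaled to library size, with TMM factors) in the CD24Neg libraries, against 6.09 to 17.0 CPM in the CD24Mid ones. Goblet cell markers, of which 4 of 6 were called toward CD24Neg, summed to between 9441 and 26470 CPM, against 3111 to 4469 CPM. Called toward CD24Mid were all 6 markers of dividing cells, 5 of 7 of enteroendocrine cells, 3 of 4 of plasma cells (with 1 toward CD24Neg), 2 of 4 of myeloid cells, 1 of 4 tested of Paneth cells and 1 of 3 tested of tuft cells. Over all 12840 tested genes, 35.5% were called toward CD24Mid and 34.3% toward CD24Neg, and these small marker counts were not tested against those shares. The 1 endothelial or stromal marker tested was not called. The part of these cells in the results below was not tested except where a value is given. In bulk samples, fewer cells of a type and less RNA per cell cannot be told apart.

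The sorted groups carried different mixtures of carbonic anhydrases. The cytosolic enzymes Car2 and Car13 were 14.7-fold and 2.12-fold higher in CD24Neg, the membrane-spanning Car12 and the inactive Car8 were 4.15-fold and 3.23-fold higher in CD24Mid, and Car9 did not pass the test. Car4 was 1.72-fold higher in CD24Neg, a call that several alternatives ended. Of the 8 genes, 6 passed the filter on low counts. At an edgeR adjusted p under 0.05, Car8 and Car12 (2 genes) were called toward CD24Mid and Car2, Car13 and Car4 (3 genes) toward CD24Neg. The same calls took in 35.5% and 34.3% of all 12840 tested genes, 69.8% together, so the number of calls does not set the family apart. Of the 12840 genes, 64.4% had groups that did not overlap in CPM, and of the 6 tested carbonic anhydrases this held for 4 (Car2, Car13, Car8 and Car12).

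**Figure D1:**
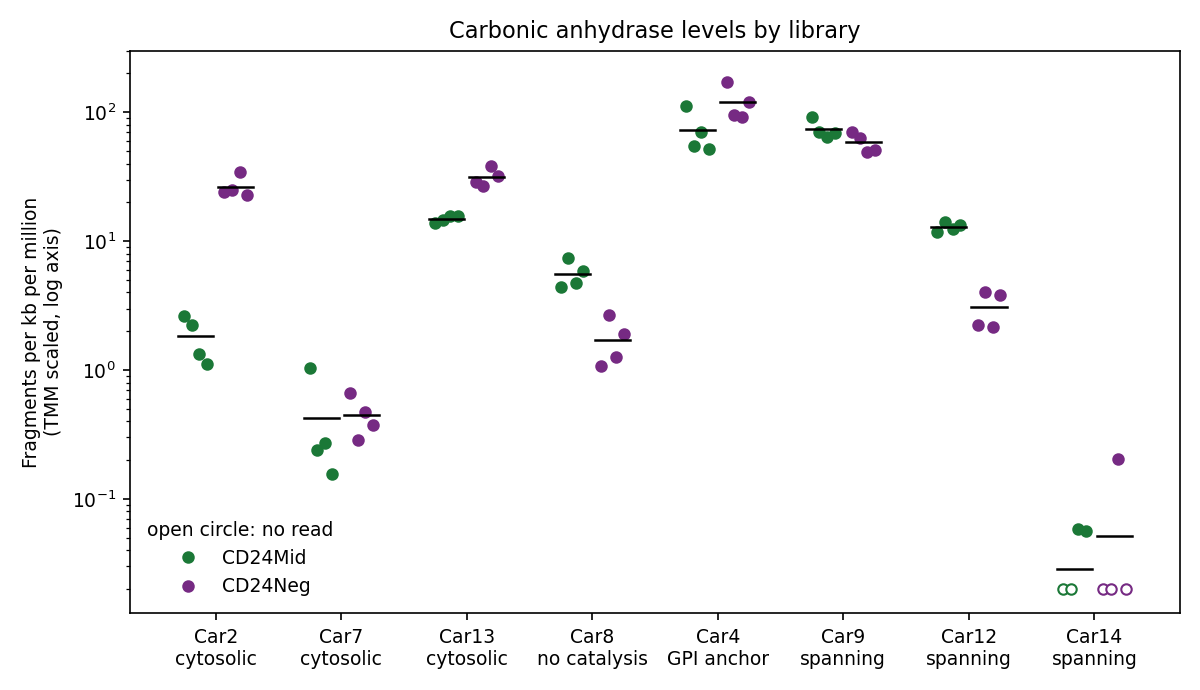
Level of each carbonic anhydrase in the 8 libraries, in FPKM (CPM per kilobase of effective length) on a log axis (points, single libraries; black lines, group means; open circles, libraries without a read, drawn at the foot of the axis). Car2 and Car13 lie higher in all CD24Neg libraries, Car8 and Car12 higher in all CD24Mid libraries, and the groups overlap for Car4, Car9 and Car7.

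Car2 (ENSMUSG00000027562), the fast cytosolic enzyme, changed the most of the 6 tested genes. In CD24Mid libraries 1, 3, 5 and 7 it stood at 3.64, 3.16, 1.88 and 1.57 CPM, from 75, 68, 45 and 39 reads. In CD24Neg libraries 2, 4, 6 and 8 it stood at 33.7, 35.9, 47.7 and 32.1 CPM, from 266, 310, 657 and 291 reads. The lowest CD24Neg library was thus far above the highest CD24Mid library, and CD24Neg replicate 6 was the highest of all. As log2 of CD24Mid over CD24Neg the fold change was -3.88 ± 0.26 (SE, edgeR adjusted p = 4.34e-07, n = 4 each). Car2 is also abundant in red blood cells. Of the markers of these cells, the globin genes Hba-a1 and Hba-a2 had no gene-unique read in any library. Their estimates with shared reads also rounded to 0 reads. Alas2, a heme synthesis gene, had 5 reads over the 8 libraries, while Hbb-b1 and Hbb-b2 were not matched to a gene of the tables. Without CD24Neg replicates 2 and 8, which held the most T and NK lymphocyte transcripts (503 and 379 CPM), the log2 fold change was -4.03.

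Car13 (ENSMUSG00000027555), also a cytosolic enzyme, differed less between the groups than Car2. It stood at 25.2, 27.0, 28.9 and 29.0 CPM in CD24Mid libraries 1, 3, 5 and 7 and at 53.1, 50.5, 69.8 and 59.9 CPM in CD24Neg libraries 2, 4, 6 and 8. The CD24Mid libraries lay close together, and every CD24Neg library was above them. Its log2 fold change was -1.08 ± 0.12 (SE, edgeR adjusted p = 1.28e-05, n = 4 each). On library totals without scaling factors it was -0.14 and did not pass (edgeR adjusted p = 0.313). Without CD24Neg replicates 2 and 8 it was -1.11.

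Car7 (ENSMUSG00000031883), a cytosolic enzyme best known from brain, was barely detected and did not pass the filter. It had 8, 6, 10 and 6 reads in CD24Mid libraries 1, 3, 5 and 7 and 8, 3, 10 and 4 in CD24Neg libraries 2, 4, 6 and 8. Mean levels were 0.332 ± 0.0848 CPM and 0.632 ± 0.301 CPM (SD, n = 4 each), and the groups overlapped. The ratio of CD24Neg to CD24Mid over the summed reads was 1.92, with an exact 95% interval of 1.09 to 3.39 that covers counting error only. Its effective length in the deposited tables ran from 376 to 1538 bases over the libraries, so its level per length is less certain than its CPM.

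Car8 (ENSMUSG00000041261) encodes a protein that lacks the catalytic activity of the family and binds the type 1 inositol trisphosphate receptor, a calcium channel of the endoplasmic reticulum. It stood at 13.9, 23.4, 14.9 and 18.6 CPM in CD24Mid libraries 1, 3, 5 and 7 and at 3.42, 8.56, 3.99 and 6.07 CPM in CD24Neg libraries 2, 4, 6 and 8. All CD24Mid libraries were above all CD24Neg libraries, and CD24Mid replicate 3 was the highest. Its log2 fold change was 1.69 ± 0.28 (SE, edgeR adjusted p = 0.000247, n = 4 each), and 1.55 without CD24Neg replicates 2 and 8. Of the 3 receptor genes, Itpr1 and Itpr2 were higher in CD24Neg, opposite to Car8, at 48.9 ± 28.6 against 18.5 ± 4.80 CPM and 22.7 ± 4.75 against 8.92 ± 2.02 CPM (SD, n = 4 each; edgeR adjusted p = 0.00745 and 9.06e-05). On unscaled totals, where 12.9% of all tested genes were called toward CD24Neg and 69.8% toward CD24Mid, neither passed (log2 fold changes -0.47 and -0.41, edgeR adjusted p = 0.299 and 0.0837). Without a filter on low counts Itpr1 did not pass (-1.30, edgeR adjusted p = 0.0684), and 20.3% of all genes were called toward CD24Neg and 25.1% toward CD24Mid. The log2 fold change of Itpr1 was -1.40, or -0.93 without CD24Neg replicate 4 (edgeR adjusted p = 0.0388). Itpr3, the most abundant of them in CPM, had 241 ± 36.0 CPM in CD24Mid, with 208 ± 24.4 CPM in CD24Neg, and no call (edgeR adjusted p = 0.187). It was called toward CD24Mid with upper-quartile scaling (0.43, edgeR adjusted p = 0.0170), where 43.6% of all tested genes were called toward CD24Mid and 27.3% toward CD24Neg, and on unscaled totals (1.16, edgeR adjusted p = 1.73e-05).

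Car12 (ENSMUSG00000032373), a membrane-spanning enzyme, had the largest change toward CD24Mid of the 6 tested genes. It stood at 34.7, 41.7, 35.6 and 39.0 CPM in CD24Mid libraries 1, 3, 5 and 7 and at 6.21, 12.4, 6.61 and 11.4 CPM in CD24Neg libraries 2, 4, 6 and 8. The CD24Mid libraries were tightly grouped, and within CD24Neg the libraries 4 and 8 were the higher pair. The same 2 libraries had the highest Car8 levels of their group, and the highest summed stem cell markers of their group (326.5 and 285 CPM, against 94.7 and 107 CPM in libraries 2 and 6). They were also the highest of their group for dividing cell, enteroendocrine, Paneth and tuft markers, and for none of the other marker lists. Within CD24Mid, replicate 3 was highest for Car8, Car12 and the stem cell (3988 CPM), enteroendocrine, Paneth and tuft sums. Replicate 1 was lowest for each of these. The dividing cell sum was highest in CD24Mid replicate 7 (1684 CPM). The log2 fold change of Car12 was 2.05 ± 0.21 (SE, edgeR adjusted p = 7.54e-06, n = 4 each), and 2.04 without CD24Neg replicates 2 and 8. The part of stem, dividing, enteroendocrine, Paneth or tuft cells in the levels of Car8 and Car12 within either group was not tested.

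Car9 (ENSMUSG00000028463), a membrane-spanning enzyme, was abundant in both groups. It stood at 128, 103, 92.0 and 94.5 CPM in CD24Mid libraries 1, 3, 5 and 7 and at 106, 94.0, 70.4 and 75.4 CPM in CD24Neg libraries 2, 4, 6 and 8. CD24Neg replicates 2 and 4 lay within the range of CD24Mid, so the groups overlapped. The log2 fold change of 0.27 ± 0.16 did not pass (SE, edgeR adjusted p = 0.139, n = 4 each). It passed without CD24Neg replicate 2 (0.42, edgeR adjusted p = 0.0283), without a filter on low counts (0.37, edgeR adjusted p = 0.0416) and on 2 other scalings, with 0.49 on upper-quartile scaling (edgeR adjusted p = 0.0165) and 1.21 on unscaled totals (edgeR adjusted p = 2.31e-05). An antisense gene, Gm12454, overlaps Car9 in the later annotation used for names. It had 642 reads in CD24Mid and 272 in CD24Neg, against 9400 and 3302 for Car9. All are gene-unique reads, a count that leaves out reads assigned to both genes. The strand setting was not found, and the part of antisense reads was not tested.

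Car4 (ENSMUSG00000000805), the GPI-anchored enzyme of the brush border, was abundant in both groups and varied widely within each. It stood at 98.9, 50.4, 64.7 and 45.3 CPM in CD24Mid libraries 1, 3, 5 and 7 and at 161, 89.6, 84.9 and 111 CPM in CD24Neg libraries 2, 4, 6 and 8. CD24Mid replicate 1 lay above CD24Neg replicates 4 and 6, so the groups overlapped. The same library had the highest summed enterocyte markers of its group (2109 CPM, in a group that started at 1320 CPM). Within CD24Neg it was the other way, with the highest sum (43250 CPM) in replicate 6, where Car4 was lowest. Replicates 2 and 8 had the lowest sums (25738 and 25591 CPM). The log2 fold change of Car4 was -0.78 ± 0.27 (SE, edgeR adjusted p = 0.0214, n = 4 each). The CD24Neg replicates 2 and 8, where Car4 was highest, were also those with the most T and NK lymphocyte transcripts. Without both, the log2 fold change was -0.42 and did not pass (edgeR adjusted p = 0.212), and on unscaled totals it turned to 0.16 (edgeR adjusted p = 0.564). The call was also lost with CD24Neg replicate 2 (-0.52, edgeR adjusted p = 0.0766), CD24Neg replicate 8 (-0.74, 0.0508), CD24Mid replicate 3 (-0.68, 0.0616) or CD24Mid replicate 7 (-0.64, 0.0580) left out. The part of lymphocytes or enterocytes in the spread of Car4 was not tested.

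Car14 (ENSMUSG00000038526), the remaining membrane-spanning enzyme, was at the limit of detection. Single reads were found in CD24Mid libraries 5 and 7, 2 reads in CD24Neg library 6, and none in the other 5 libraries. A library with no read allows a level of up to 3 reads (counting error only). For the libraries without a read, this is 0.139 to 0.145 CPM in CD24Mid and 0.331 to 0.380 CPM in CD24Neg. No difference was detectable at this depth. Car14 overlaps the well-expressed gene Aph1a on the opposite strand in the later annotation.

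The hypoxia-inducible factors bind a core that can read ACGTG, the only form of the core searched for here. Because Car9 is a known target of these factors, its start is shown beside those of other membrane enzymes. Each run holds 22 bases before and 8 bases from the RefSeq transcription start (GRCm38.p6, 5′ to 3′ on the gene's strand), with the core in capitals on either strand (ACGTG or its reverse complement CACGT).
Car9, chr4:43507004-43507033, plus strand: gatgCACGTacagcccgtccacagtgtgtc
Car4, chr11:84957732-84957761, plus strand: ccgccaggaggaggagccgactccCACGTc
Car14, chr3:95904678-95904707, minus strand: caccacccccctcctCACGTacaccggttt
Car12, chr9:66713664-66713693, plus strand: tgatgacatcatgtttagggttgagtcgcg
This form of the core began 18 bases before the start in Car9 and 7 bases before it in Car14. It began at base 3 of the transcript in Car4 and was absent from the 300-base window of Car12. Of the 7 windows of the 5 genes with an entry (Car4, Car7, Car9, Car12 and Car14), 3 held it, and Car2, Car8 and Car13 had no entry. It was found in 19.6% of all 32851 RefSeq windows of this length (250 bases before to 50 after a start), where CACGTG would match on both strands. These matches describe the letters only.

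The mixture of isozymes was also described within each library, where scaling factors cancel. A level per length is in FPKM, from gene-unique reads, and a share is the level of a gene over the sum for all 8 genes. Cytosolic catalytic enzymes (Car2, Car7 and Car13) made up 9.71% ± 1.61 of the sum in CD24Mid and 24.8% ± 6.40 in CD24Neg (SD, n = 4 each). Single CD24Mid libraries lay between 7.33% and 10.8% and single CD24Neg libraries between 17.8% and 33.3%, without overlap. The membrane-spanning enzymes differed the other way, at 48.3% ± 4.39 in CD24Mid and 25.5% ± 3.45 in CD24Neg, with libraries at 43.6% to 52.5% and 23.4% to 30.7%. The GPI-anchored Car4 held 38.8% ± 6.85 and 49.0% ± 7.06, with overlapping libraries. Membrane enzymes together were the larger part in every library, at 85.0% to 90.8% in CD24Mid and 66.1% to 81.8% in CD24Neg. These shares are descriptions without a test.

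**Figure D2:**
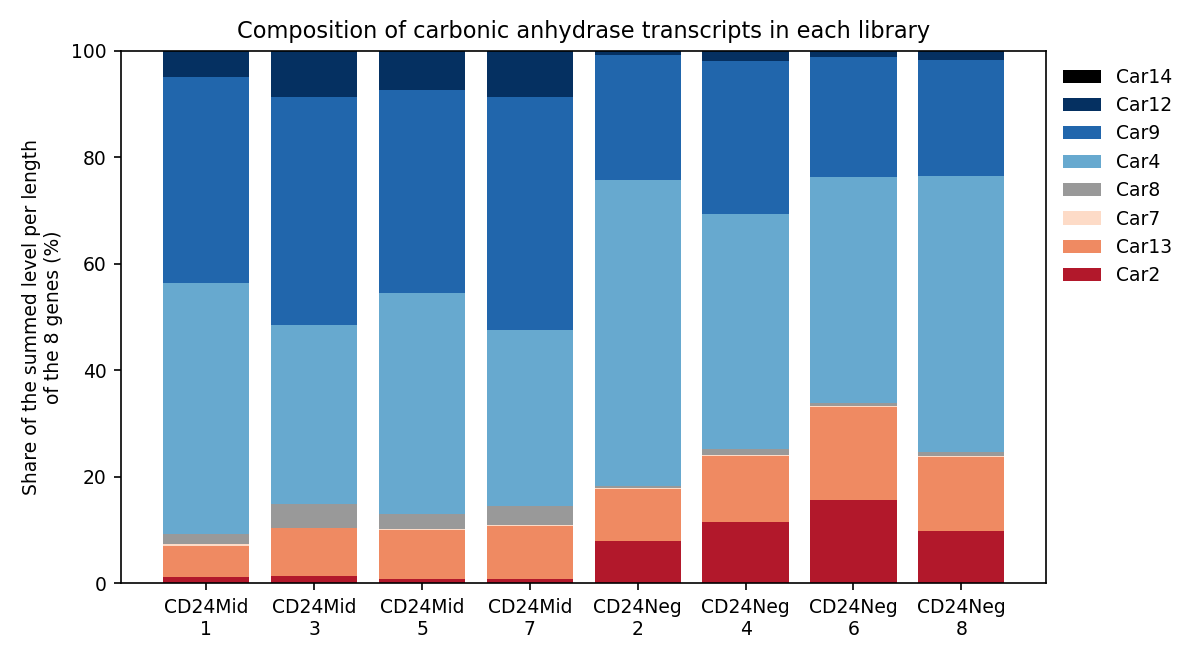
Share of each gene in the summed level per length of the 8 carbonic anhydrases, in percent, for each library (stacked bars; red tones cytosolic catalytic, grey Car8, blue tones membrane). The cytosolic part is between 7.33% and 10.8% in CD24Mid and between 17.8% and 33.3% in CD24Neg, where Car2 has a visible share.

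Shares can separate the groups where CPM does not, as for Car9, since a share also depends on the other genes in the sum. The share of Car9 was 40.9% ± 2.92 in CD24Mid (38.2% to 43.9%) and 24.2% ± 3.17 in CD24Neg (21.8% to 28.8%), without overlap, although its CPM did not pass. Its own level per length overlapped, at 64.7 to 91.8 FPKM in CD24Mid and 49.3 to 70.7 FPKM in CD24Neg. The sum for all 8 genes was 182 ± 37.5 FPKM in CD24Mid and 242 ± 39.5 FPKM in CD24Neg. Within libraries the ratio of Car4 to Car9 per length was 0.751 to 1.22 among CD24Mid libraries and 1.53 to 2.45 among CD24Neg libraries, without overlap. The ratio of Car2 to Car13 was 0.0710 to 0.189 in CD24Mid and 0.703 to 0.932 in CD24Neg.

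The order of the genes per length also differed. In CD24Mid, Car9 (73.8 ± 12.2 FPKM, SD) and Car4 (72.2 ± 27.9) led and overlapped, each above the other in 2 of 4 libraries. Car13 (14.9 ± 0.941) and Car12 (12.9 ± 1.05) followed with overlapping ranges, Car13 being above in 4 of 4 libraries, then Car8 (5.58 ± 1.34) and Car2 (1.83 ± 0.714), which did not overlap with their neighbours. In CD24Neg, Car4 (121 ± 37.2) led alone, ahead of Car9 (58.3 ± 10.2), and neither overlapped with the next gene. Car13 (31.5 ± 4.90) and Car2 (26.5 ± 5.21) overlapped in range, as did Car12 (3.07 ± 1.01) and Car8 (1.72 ± 0.711), but the first of each pair was above the other in 4 of 4 libraries. Car7 and Car14 came last in both groups, at means of 0.424 and 0.0288 in CD24Mid and 0.449 and 0.0513 in CD24Neg on the same scale.

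The scaling of the libraries turned the direction of Car4 and moved the calls of Car13 and Car9. The share of calls that pointed to CD24Mid was 50.8% with TMM factors, 61.4% by upper quartile and 84.4% on unscaled totals. The median log2 fold change over all tested genes was 0.015, 0.24 and 0.96 in that order. Relative to that median, Car2 stood at -3.89, -3.89 and -3.90, Car13 at -1.10 each time, and Car4 at -0.80, -0.81 and -0.80. On the other side, Car9 stood at 0.26, 0.25 and 0.26, Car8 at 1.68, 1.68 and 1.67, and Car12 at 2.04 each time. Car2 stayed called toward CD24Neg, and Car8 and Car12 toward CD24Mid, under all 3 scalings.

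**Figure D3:**
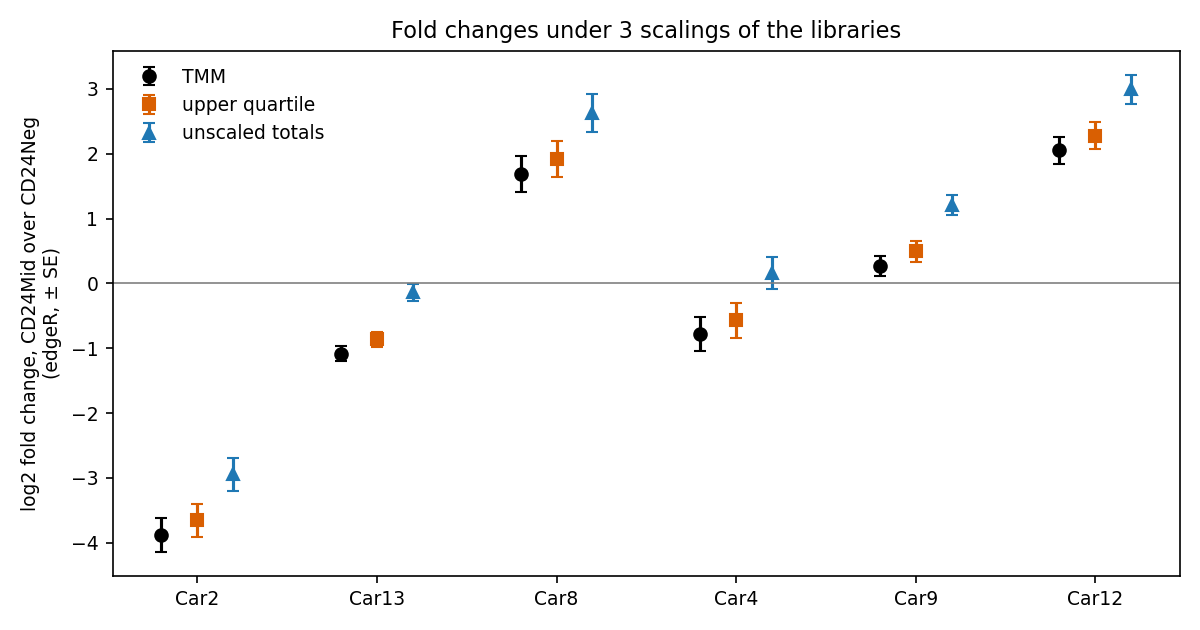
Log2 fold change of CD24Mid over CD24Neg for the 6 tested carbonic anhydrases with TMM, upper-quartile and no scaling (edgeR, bars ± SE, n = 4 libraries each). Car4 alone crosses 0, from -0.78 to 0.16. The other 5 genes keep their side, with Car9 moving from 0.27 to 1.21 and Car13 from -1.08 to -0.14.

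Carbonic anhydrases work with transporters of bicarbonate, chloride and protons. Of 21 genes for bicarbonate and chloride transport, 10 were tested, of which 8 were higher in CD24Neg and 1 in CD24Mid, with a median log2 fold change of -1.20 against 0.015 for all genes tested, of which 34.3% and 35.5% were called in these directions. On unscaled totals the list's counts were 3 and 2, with a median of -0.26, against 12.9% and 69.8% of all tested genes. The apical anion exchangers Slc26a6 and Slc26a3 were 10.3-fold and 4.83-fold higher in CD24Neg, at 462 ± 85.9 against 45.1 ± 17.5 CPM and 296 ± 36.5 against 61.3 ± 18.5 CPM (SD, n = 4 each; edgeR adjusted p = 1.16e-06 and 2.89e-06). The sodium bicarbonate cotransporter Slc4a7 was 2.68-fold higher there (edgeR adjusted p = 0.000823). Cftr, the chloride and bicarbonate channel of crypt secretion, was the gene higher in CD24Mid, at 222 ± 61.6 against 114 ± 26.7 CPM (1.95-fold, edgeR adjusted p = 0.00268).

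Of 18 genes for proton and monocarboxylate transport, 13 were tested, of which 6 were higher in CD24Neg and 4 in CD24Mid, with a median log2 fold change of -0.11. Over all tested genes the shares were 34.3% and 35.5%. On unscaled totals 6 and 7 of the 13 were called, against 12.9% and 69.8% of all tested genes. The median turned to 0.83, and on upper-quartile scaling it turned to 0.11. Slc9a3, the apical sodium-proton exchanger of absorption, had 172 ± 41.7 CPM in CD24Neg and 15.8 ± 9.61 CPM in CD24Mid (SD, n = 4 each), a 10.9-fold difference (edgeR adjusted p = 2.60e-05). The proton-coupled peptide transporter Slc15a1 was 77.9-fold and the lactate exporter Slc16a3 15.8-fold higher there (edgeR adjusted p = 1.43e-07 and 9.35e-08). Higher in CD24Mid were the sodium-proton exchanger Slc9a5, 3.97-fold, and the monocarboxylate transporter Slc16a1, 1.52-fold (edgeR adjusted p = 7.98e-05 and 0.000206).

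Hypoxia response genes were counted because Car9 is one of this class. Of 23 others, 22 were tested, of which 14 were higher in CD24Neg and 3 in CD24Mid, with a median log2 fold change of -0.57, against 34.3% and 35.5% of all tested genes. On unscaled totals 7 and 10 of the 22 were called, with a median of 0.37, against 12.9% and 69.8% of all tested genes. Egln3, an oxygen-sensing prolyl hydroxylase, had 26.0 ± 6.92 CPM in CD24Neg and 0.905 ± 0.302 CPM in CD24Mid (SD, n = 4 each), a 28.7-fold difference (edgeR adjusted p = 1.59e-07). The growth factor gene Vegfa and the transcription factor gene Mxi1 were 7.34-fold and 3.65-fold higher there (edgeR adjusted p = 2.12e-07 and 1.54e-06). Higher in CD24Mid were Hk2, a hexokinase, 2.97-fold, Pdk1, a kinase that restrains pyruvate entry, 1.42-fold, and the hydroxylase Egln1, 1.26-fold (edgeR adjusted p = 0.000266, 0.000961 and 0.0239). The factor gene Hif1a stood at 49.0 ± 11.1 and 47.9 ± 10.8 CPM and did not pass (edgeR adjusted p = 0.892), and is named here after its value was seen.

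**Figure D4:**
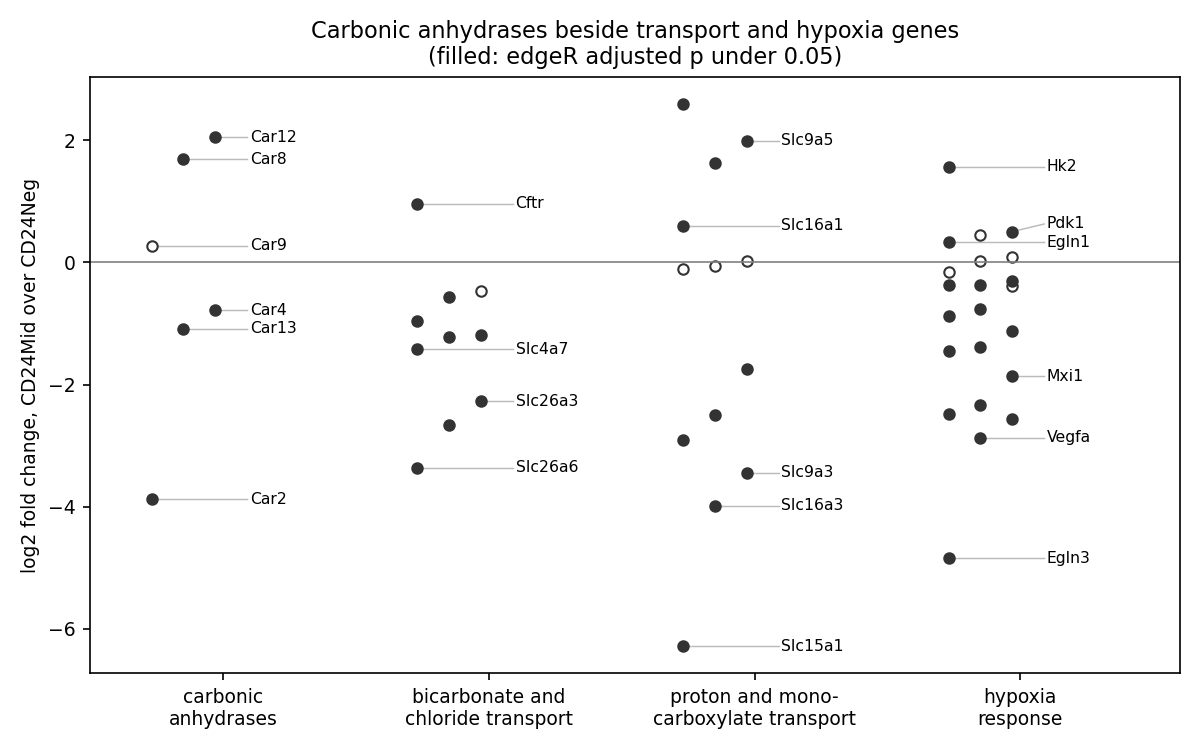
Log2 fold change of CD24Mid over CD24Neg for the tested carbonic anhydrases and the tested genes of 3 lists (points, single genes; filled, edgeR adjusted p under 0.05; names, genes given in the text). Most bicarbonate transport and hypoxia genes lie below 0, toward CD24Neg, with Cftr at 0.97 and Hk2 at 1.57 among those above it.

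The genes most like each carbonic anhydrase over the 8 libraries were found by the root mean square difference in log2 CPM after centring each gene on its mean, among 9700 candidate genes. For Car2 they were Cgref1 (0.18), Tmem86b (0.20) and Plekhf1 (0.22), with log2 fold changes of -4.01, -3.66 and -3.76. For Car13 they were Heatr6, Trip4 and Mindy3 (0.068 to 0.087), and for Car4 Sema4g, Edn2 and Als2cl (0.21 to 0.22). For Car12 they were Mmp7 (0.13), a Paneth cell protease gene, Rpa2 (0.13) and Wdr62 (0.15), and for Car8 Aaas, Tmem109 and Gga2 (0.19 to 0.20). For Car9 they were Serinc2, Dhrs7 and Dpm3 (0.066 to 0.077). These are descriptions over libraries that share 2 groups, without a test.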

How the data were processed

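Total RNA of sorted cells was prepared with Illumina's TruSeq chemistry, per the labels' protocols. Bowtie 0.12.8 and NCBIM37 are named in the submitters' processing notes. The column names are those of MMSEQ, and its version, strand setting and annotation release were not found in the labels or headers. Per the file headers, the authors deposited gene-unique hits, used here as counts, with an expression estimate that includes shared reads and an effective length. The deposited estimate was read as a natural log of FPKM over mapped fragments. No label states that scale. Turned back into reads, it gave a median ratio to the unique counts of 1.00 over genes with at least 100 reads.

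The test was edgeR 4.0.16 under R 4.3.3: TMM, filterByExpr, a robust quasi-likelihood fit on group, and Benjamini-Hochberg adjustment over 12840 genes at 0.05. The code was tested on simulated data. CPM and FPKM use TMM-scaled library sizes, with factors of 1.34 to 1.42 in CD24Mid and 0.697 to 0.757 in CD24Neg. Standard errors are log2 fold changes over the root of F, and log2 CPM has a prior count of 3. Exact intervals came from SciPy 1.17.1, and no molecular identifiers are named, so they cover counting error only. Symbols were matched for 32897 of 37620 gene IDs. Gene positions in the submitters' build are not printed, since the annotation given was GRCm38. The positions that are printed are those of GRCm38.p6. No library was treated as a repeat of another (smallest chi-square over degrees of freedom within a group, 11.6). The p-values measure the spread between these samples.

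The 8 genes, 5 lists of related genes (73 in all) and 12 marker lists were chosen with earlier results of these data known. From the lists of related genes, all tested genes are named where a list has up to 8. From longer ones the text names up to 3 called genes per direction, by size of change, with mean log2 CPM of 2 or more. Like genes are the 3 nearest to each tested carbonic anhydrase. Alternatives were upper-quartile, DESeq2 and no scaling, the DESeq2 1.42.0 test, no filter, estimated counts, mitochondrially encoded genes left out, single libraries left out and, chosen after seeing the data, CD24Neg replicates 2 and 8 left out.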

Additional observations from a re-analysis of the deposited data

Results flagged for a closer look

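Of 16 sets of 4 libraries (8 genes in 2 groups), 1 held a library far from the others. For Car14 in CD24Neg the gap of replicate 6 to the next library was 1 of the whole range, since it had 2 reads and the other 3 libraries none. A chance of about 1 such set in 20 holds for continuous levels. Where 1 of 4 libraries alone has reads, the gap is always the whole range, so that rate does not apply to this set. The level is at the detection limit.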

How the results depend on the processing

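Car2, Car8 and Car12 kept their direction and call under every alternative run. Car13 lost its call on unscaled totals alone (-0.14). The log2 fold change of Car4 did not pass with upper-quartile scaling (-0.57), without a filter (-0.68) or without both CD24Neg replicates 2 and 8 (-0.42), and reversed to 0.16 on unscaled totals. With single libraries left out it ran from -1.06 to -0.52, and it did not pass without CD24Neg replicate 2 (edgeR adjusted p = 0.0766) or 8 (0.0508) or CD24Mid replicate 3 (0.0616) or 7 (0.0580). Car9 passed with upper-quartile scaling (0.49), on unscaled totals (1.21) and without a filter (0.37). With single libraries left out it ran from 0.16 to 0.42, and it passed without CD24Neg replicate 2 alone. On unscaled totals 8959 genes were called higher in CD24Mid and 1659 in CD24Neg, against 4557 and 4410, and 1 carbonic anhydrase in place of 3 was higher in CD24Neg. From the deposited estimates, divided by the TMM factors, the CD24Mid levels per length moved by more than 1 SD for Car13 (13.4 from 14.9) and Car12 (11.7 from 12.9). That estimate is per mapped fragment and the level per gene-unique read, and 89.1% to 90.7% of mapped fragments were gene-unique in CD24Mid. For the other changes the cause was not tested. No paired analysis was run, because the groups share no replicate number and no label pairs libraries. By consecutive number (1 with 2, 3 with 4 and so on), the CPM order of libraries matched between groups for Car8, Car9 and Car12. It did not match for Car2, Car13 and Car4. In each such pair Car9 was higher in CD24Mid and Car4 higher in CD24Neg. The match was noticed in the values, and whether consecutive libraries share an animal is not stated. Depth limits Car7 and Car14, which were tested without a filter only (log2 fold changes -0.82 and -0.87, edgeR adjusted p = 0.167 and 0.590).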

Other observations

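The other members of the family were nearly silent. Of 8 further carbonic anhydrase genes, only Car15, which encodes a GPI-anchored enzyme, passed the filter. It had 0.922 ± 0.104 CPM in CD24Mid, against 1.02 ± 0.629 CPM for CD24Neg (SD over n = 4; log2 fold change -0.22, edgeR adjusted p = 0.623). On estimated counts with shared reads it was called higher in CD24Neg (-0.80). Car5b, a mitochondrial enzyme, had 24 reads in CD24Mid and 4 in CD24Neg, and Car6, a secreted enzyme of saliva, had 8 and 4. Car10 had no read in any library, and Car1, Car3, Car5a and Car11 had between 1 and 4 reads in all.

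Car13, Car1, Car3 and Car2 follow one another as protein-coding genes on chromosome 3 in GRCm38.p6. The outer genes of this row, Car13 and Car2, had 2513 and 227 reads in CD24Mid and 2359 and 1524 in CD24Neg. The inner genes had 0 and 2 reads (Car1) and 2 and 2 reads (Car3) in the same groups. Car1 is known as an abundant enzyme of the colon.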
